A study of Mus musculus with 7 samples.

Results

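A set of 10 genes of heme breakdown and iron handling was followed through RNA-seq of mouse embryonic fibroblasts (MEFs) under 6 stress conditions. They were chosen by their known role, and they are Hmox1, Hmox2, Blvra, Blvrb, Fth1, Ftl1, Slc40a1, Tfrc, Slc11a2 and Ireb2, which makes 10 of the 49382 genes in the deposited table. All 10 were among the 12909 genes that averaged 2 TPM or more across the libraries, here called kept genes. TPM is a gene's share of a library corrected for transcript length and scaled to a total of 1000000. Levels can thus be compared between genes, and between libraries only as shares of each total.

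The study prepared 7 libraries of wild type MEFs, 1 for each condition, to ask how fibroblasts change their gene expression when the environment turns adverse. One library came from control cells, for which no time is given. Oxidative stress was 10 μM NaAsO2 (sodium arsenite, which reacts with cellular thiols) for 3 h, and osmotic stress was 100 mM NaCl for 3 h. ER stress was 1 μM thapsigargin (which blocks the calcium pump of the endoplasmic reticulum) for 10 h, hypoxia was 0.1% oxygen for 10 h, and glucose and glutamine were each left out of the medium for 10 h.

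The MEFs were primary cells of E13.5-E14.4 embryos, freed of the head and of the blood-rich tissue including the fetal liver, and were used between passages 3 and 7. The labels name no separate cultures or embryos for the libraries. With 1 library per condition there was no replicate to set a difference against, so no test could be made and no error is given for any value. Treatment and time in culture cannot be told apart in the comparisons with the control, and all 6 comparisons share that 1 control library. How deeply each library was sequenced cannot be read from TPM, which hold no counts. A change is the log2(TPM + 1) of a condition minus that of the control. It was counted, and is called a rise or a fall, when it was larger than 2-fold, the size of change by which the study chose genes. Adding 1 TPM understates the change of genes with low levels.

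Heme, the iron-holding ring of hemoglobin, cytochromes and many enzymes, is opened by a heme oxygenase into biliverdin, carbon monoxide and free iron, and biliverdin reductase turns the biliverdin into bilirubin. The iron set free is stored in ferritin, a hollow shell of heavy and light chains, or leaves the cell through ferroportin, while new iron enters bound to transferrin through the transferrin receptor and crosses the endosome membrane through DMT1. The iron-regulatory proteins tie these steps together: when iron is scarce they bind a hairpin in the mRNA called the iron-responsive element (IRE), which blocks translation when it lies in the 5′ UTR and protects the mRNA when it lies in the 3′ UTR. The transcription factor NRF2 raises many of the genes of this pathway under oxidative and electrophilic stress, and BACH1, which lets go of DNA when it binds heme, holds several of them down.

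The cells had the fibroblast markers their label calls for. The summed level of 7 fibroblast markers (Col1a1, Col1a2, Col3a1, Dcn, Pdgfra, Thy1 and Vim) was 6102 TPM in ER stress and between 10117 and 12658 TPM in the other libraries. Macrophages and red cell precursors also handle heme iron in quantity, so their markers were read. Per the study's general methods, MEFs were sorted to exclude macrophages unless noted. Low macrophage markers can therefore follow from the preparation. The 7 macrophage markers summed to between 6.76 and 13.7 TPM, with 4 of the 7 under 1 TPM in every library and C1qa at 0 in all. The 9 erythroid markers, globins among them, summed to between 0.102 and 1.24 TPM, with each of the 9 under 1 TPM in every library. Most of the macrophage sum came from Cd68, a lysosomal protein that is not limited to macrophages. Endothelial markers (4 genes) summed to between 2.94 and 7.31 TPM and epithelial markers (4 genes) to between 3.88 and 11.6 TPM, highest in ER stress. Mitochondrially encoded genes took between 5.09% and 9.25% of a library, with the largest share in oxidative stress. In bulk samples of this kind, fewer cells of a type and less RNA per cell cannot be told apart.

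In 5 of the genes lies the IRE by which iron itself is known to set their output, and these hairpins are shown because they separate the genes into those held at the 5′ end (ferritin, ferroportin) and those held at the 3′ end (uptake). The search looked on the sense strand of GENCODE M21 transcripts for an unpaired C, 5 bases of stem, the loop CAGTGN, and 5 bases that pair with the stem (A with T, G with C, or G with T). In the lines here, the capitals mark the unpaired C and the loop, and each element lies within 1 exon. The positions are on GRCm38. The Fth1 element lies in the 5′ UTR at chr19:9982732-9982760 on the plus strand (in 4 of 5 coding transcripts), the Ftl1 element in the 5′ UTR at chr7:45459779-45459807 on the minus strand (1 of 2), and the Slc40a1 element in the 5′ UTR at chr1:45925465-45925493 on the minus strand (1 of 4). The Tfrc elements lie in the 3′ UTR on the plus strand, in 1 of 3 coding transcripts, at chr16:32631219-32631247, chr16:32631598-32631626, chr16:32631663-32631691 and chr16:32631710-32631738. The Slc11a2 element lies in the 3′ UTR at chr15:100395153-100395181 on the minus strand, in 1 of 6 coding transcripts, and was met when 1 unpaired base was allowed on the 3′ side of the stem, a rule added after the sequences were seen.
Fth1: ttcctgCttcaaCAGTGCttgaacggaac
Ftl1: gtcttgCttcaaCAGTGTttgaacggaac
Slc40a1: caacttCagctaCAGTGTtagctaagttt
Tfrc (32631219): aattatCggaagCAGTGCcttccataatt
Tfrc (32631598): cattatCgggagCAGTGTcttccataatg
Tfrc (32631663): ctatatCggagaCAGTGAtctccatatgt
Tfrc (32631710): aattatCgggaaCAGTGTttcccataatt
Slc11a2: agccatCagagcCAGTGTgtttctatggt

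The Fth1 and Ftl1 elements were identical at 26 of 29 positions, and the 4 Tfrc elements at 18 to 25 of 29 positions between pairs. The Slc40a1 element shared 13 of 29 positions with each ferritin element. In the longest transcript of each of 21901 protein-coding genes, 272 genes (1.24%) had a match with all 5 pairs, against 4 of the 10 genes described here. With 1 unpaired base allowed these became 814 genes (3.72%) and 5 of the 10. The 10 genes were chosen by their known role in heme and iron handling, so these shares are no test of enrichment. Tfrc was the 1 gene with 4 or more matches. Hmox1, Hmox2, Blvra, Blvrb and Ireb2 had no match. A match is a description of the letters, and the libraries measured mRNA, not the translation that a 5′ element controls.

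Hmox1 was the gene of the pathway that moved furthest, and it did so under arsenite and thapsigargin. It encodes heme oxygenase-1, the inducible enzyme that opens the heme ring (ENSMUSG00000005413, chr8:75093621-75100589, plus strand, on GRCm38). Its level was 266 TPM in the control, 6055 TPM in oxidative stress, 256 TPM in osmotic stress, 1802 TPM in ER stress, 497 TPM in hypoxia, 217 TPM in glucose depletion and 265 TPM in glutamine depletion. The oxidative and ER stress libraries stood far above the rest, hypoxia lay between, and the remaining 4 libraries lay close together. The log2 change was 4.50 in oxidative stress, a 22.7-fold difference in TPM, and 2.75 in ER stress, a 6.76-fold difference. In hypoxia it was 0.90, just under the 2-fold threshold, and it was -0.06 in osmotic stress, -0.29 in glucose depletion and -0.01 in glutamine depletion.

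Among the 11300 protein-coding kept genes, a set chosen after the data were seen, Hmox1 had the rank 2 from the top in oxidative stress, 53 in ER stress and 274 in hypoxia. Among all 12909 kept genes, which include many short noncoding genes at low levels, the ranks were 55, 203 and 533. Its gain of 5789 TPM in oxidative stress had the rank 3 of all 49382 genes, and its gain of 1535 TPM in ER stress had the rank 11. Hmox1 went from the 577th most abundant gene of the control library to the 8th in oxidative stress, 1 place above Ftl1, which is among the most abundant mRNAs of these cells in every library. It made up 0.0266% of the control library, 0.606% in oxidative stress and 0.180% in ER stress.

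**Figure D1:**
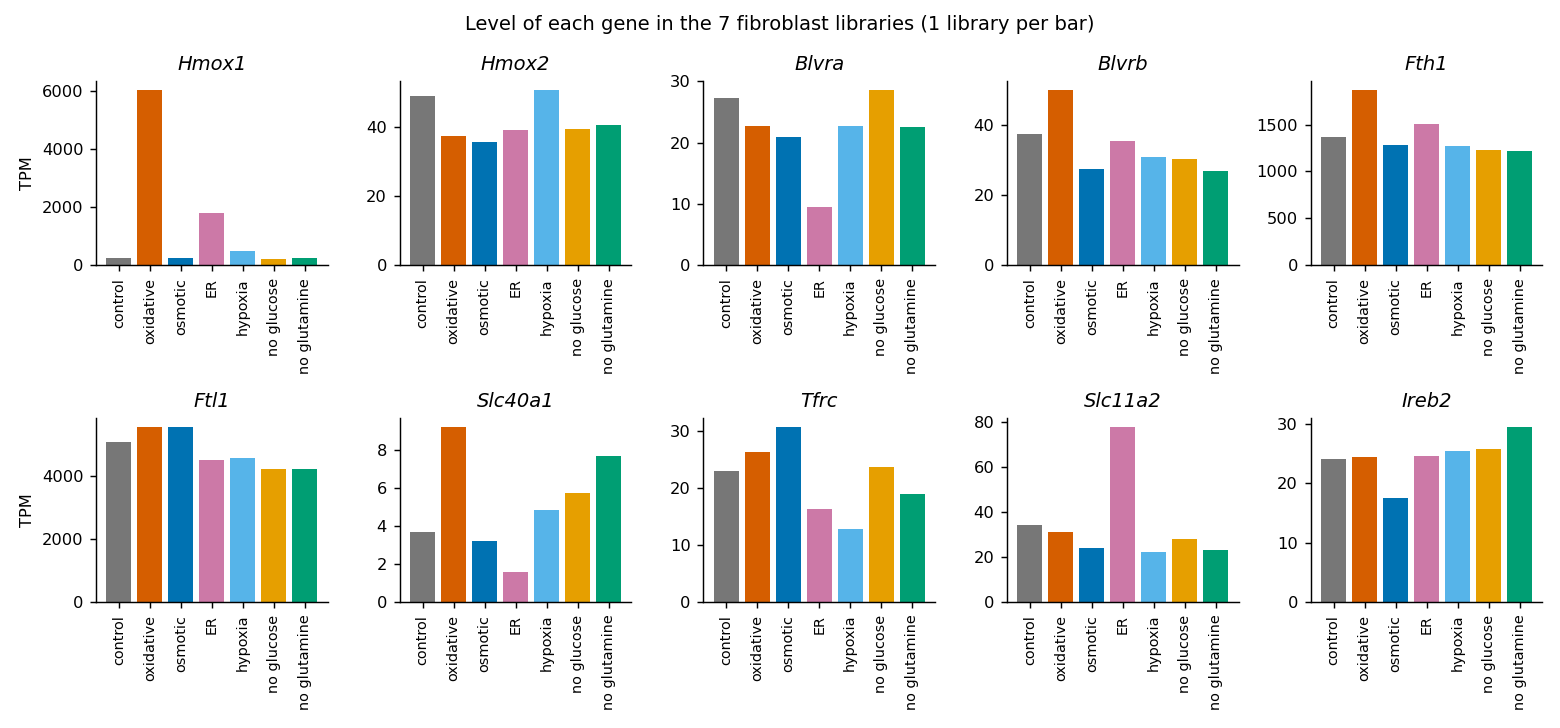
Level in TPM (vertical axis, from 0, with its own scale in each panel) of the 10 genes in the 7 libraries, with 1 library per bar and no error bars because no condition had a replicate. Hmox1 stands at 6055 TPM in oxidative stress and 1802 TPM in ER stress, Slc11a2 is highest and Blvra lowest in ER stress, and Slc40a1 is highest in oxidative stress.

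Hmox2 encodes the constitutive heme oxygenase, known for its steady expression. It was at 48.9 TPM in the control, 37.4 in oxidative stress, 35.8 in osmotic stress, 39.2 in ER stress, 50.7 in hypoxia, 39.3 in glucose depletion and 40.6 TPM in glutamine depletion. No condition reached the threshold, and the log2 changes lay between -0.44 and 0.05. Its transcripts overlap those of Cdip1 and share 840 stretches of 31 bases with them, so the split of reads between these genes is uncertain. The ratio of Hmox1 to Hmox2 was 162 in oxidative stress, 45.9 in ER stress and 9.80 in hypoxia against 5.45 in the control, and lay between 5.53 and 7.14 in the other 3 conditions. Hmox1 was thus the more abundant heme oxygenase mRNA in all 7 libraries, the control included.

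The biliverdin reductases did not rise with Hmox1. Blvra, the main biliverdin reductase of adult tissues (chr2:127070665-127097084, plus strand), was at 27.3 TPM in the control, 22.6 in oxidative stress, 20.8 in osmotic stress, 9.58 in ER stress, 22.7 in hypoxia, 28.6 in glucose depletion and 22.6 TPM in glutamine depletion. It fell in ER stress, with a log2 change of -1.42, and in the other 5 conditions the change lay between -0.37 and 0.06. Blvrb, a reductase of fetal biliverdin and of flavins (chr7:27447978-27466144, plus strand), was at 37.6 TPM in the control, 50.1 in oxidative stress, 27.5 in osmotic stress, 35.4 in ER stress, 31.0 in hypoxia, 30.4 in glucose depletion and 27.1 TPM in glutamine depletion. It did not pass the threshold in any condition, and its largest values were 0.40 in oxidative stress and -0.46 in glutamine depletion.

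The balance between the mRNAs for the first and second step therefore differed widely between libraries. Enzyme levels and activity were not measured. The summed heme oxygenase mRNA over the summed biliverdin reductase mRNA was 83.7 in oxidative stress, 40.9 in ER stress and 10.2 in hypoxia against 4.86 in the control. It was 6.03 in osmotic stress, 4.34 in glucose depletion and 6.15 in glutamine depletion. Within the reductases, the ratio of Blvrb to Blvra was 2.22 in oxidative stress and 3.69 in ER stress against 1.38 in the control, and between 1.07 and 1.37 elsewhere.

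Ferritin mRNA was abundant in all libraries and stayed within the 2-fold threshold in each condition. Fth1 encodes the heavy chain, which oxidizes iron for storage (chr19:9980598-9985098, plus strand). Its level was 1366 TPM in the control, 1870 in oxidative stress, 1281 in osmotic stress, 1509 in ER stress, 1273 in hypoxia, 1227 in glucose depletion and 1217 TPM in glutamine depletion. The highest library was oxidative stress (log2 change 0.45), followed by ER stress (0.14), and the other 4 conditions lay between -0.17 and -0.09.

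Ftl1 encodes the light chain, which helps form the mineral core (chr7:45457944-45459884, minus strand). It was at 5082 TPM in the control, 5529 in oxidative stress, 5557 in osmotic stress, 4482 in ER stress, 4570 in hypoxia, 4215 in glucose depletion and 4211 TPM in glutamine depletion, with log2 changes from -0.27 to 0.13. It varied least of the 10 genes, with a highest level 1.32 times the lowest. The 2 ferritin mRNAs together took 0.645% of the control library, 0.740% in oxidative stress, and between 0.543% and 0.684% in the other 5 conditions.

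The mRNAs of the ferritin chains differed in their balance. The ratio of Fth1 to Ftl1 was 0.338 in oxidative stress and 0.337 in ER stress against 0.269 in the control, and it was 0.231 in osmotic stress and between 0.279 and 0.291 in hypoxia and both nutrient depletions. Ftl1 has near-identical copies, so part of its reads may have been assigned elsewhere. The one above 2 TPM in any library was Ftl1-ps1 (chr13:74399694-74407346), which shares 756 stretches of 31 bases with Ftl1 and is annotated as protein-coding. It was listed at 58.1 TPM in the control, 134 in oxidative stress, 34.8 in osmotic stress, 73.5 in ER stress, 87.4 in hypoxia, 35.1 in glucose depletion and 27.0 TPM in glutamine depletion. These values are small beside those of Ftl1, and adding them changed no call. The copy of Fth1, Gm6977, was at 2.06 TPM or less.

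Slc40a1 encodes ferroportin, the known exporter of iron from mammalian cells (chr1:45908068-45926523, minus strand). It had the lowest level of the 10 genes, at 3.67 TPM in the control, 9.21 in oxidative stress, 3.20 in osmotic stress, 1.60 in ER stress, 4.86 in hypoxia, 5.75 in glucose depletion and 7.65 TPM in glutamine depletion. It rose in oxidative stress, with a log2 change of 1.13, and lay under the threshold at 0.89 in glutamine depletion, 0.53 in glucose depletion and 0.33 in hypoxia. The lowest library was ER stress, with a log2 change of -0.84. These calls near the threshold depended on the value added before the logarithm: with 5 TPM in place of 1 TPM the change in oxidative stress was 0.71, and with 0.1 TPM the change was 1.04 in glutamine depletion and -1.15 in ER stress.

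Tfrc encodes the transferrin receptor, the main route of iron uptake in most cells (chr16:32608920-32632794, plus strand). Its level was 22.9 TPM in the control, 26.4 in oxidative stress, 30.8 in osmotic stress, 16.3 in ER stress, 12.8 in hypoxia, 23.7 in glucose depletion and 19.0 TPM in glutamine depletion. Hypoxia was the lowest library, with a log2 change of -0.79, followed by ER stress at -0.46, and osmotic stress was the highest at 0.41, none past the threshold. Tfrc is known as a target of the hypoxia-inducible factors, which raise it in many cell types. The ratio of uptake to export mRNA, Tfrc over Slc40a1, was 6.25 in the control, 9.61 in osmotic stress and 10.2 in ER stress. It was 2.86 in oxidative stress, 2.64 in hypoxia, 4.13 in glucose depletion and 2.48 in glutamine depletion. Its divisor, Slc40a1, was low in every library, from 1.60 TPM in ER stress to 9.21 TPM in oxidative stress. Small differences in Slc40a1 therefore move the ratio, and iron flux was not measured.

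Slc11a2 encodes DMT1, which carries ferrous iron out of the endosome and, in the gut, into the cell (chr15:100387898-100425072, minus strand). It was at 34.1 TPM in the control, 31.0 in oxidative stress, 24.2 in osmotic stress, 77.9 in ER stress, 22.2 in hypoxia, 27.9 in glucose depletion and 23.1 TPM in glutamine depletion. The ER stress library stood above all others, and the other 5 conditions lay below the control. The log2 change was 1.17 in ER stress, past the threshold, and between -0.60 and -0.13 in the other conditions. Slc11a2 over Tfrc, the carriers that act one after the other on transferrin iron, was 4.77 in ER stress and between 0.786 and 1.73 in the other libraries. The deposited values are per gene, so transcripts with and without the 3′ element cannot be told apart.

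Ireb2 encodes iron-regulatory protein 2, which binds the elements shown above and is known to be controlled by breakdown of the protein (chr9:54863789-54912530, plus strand). It was at 24.1 TPM in the control, 24.3 in oxidative stress, 17.4 in osmotic stress, 24.5 in ER stress, 25.4 in hypoxia, 25.8 in glucose depletion and 29.5 TPM in glutamine depletion. Its mRNA did not pass the threshold in any condition, with log2 changes from -0.44 in osmotic stress to 0.28 in glutamine depletion.

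**Figure D2:**
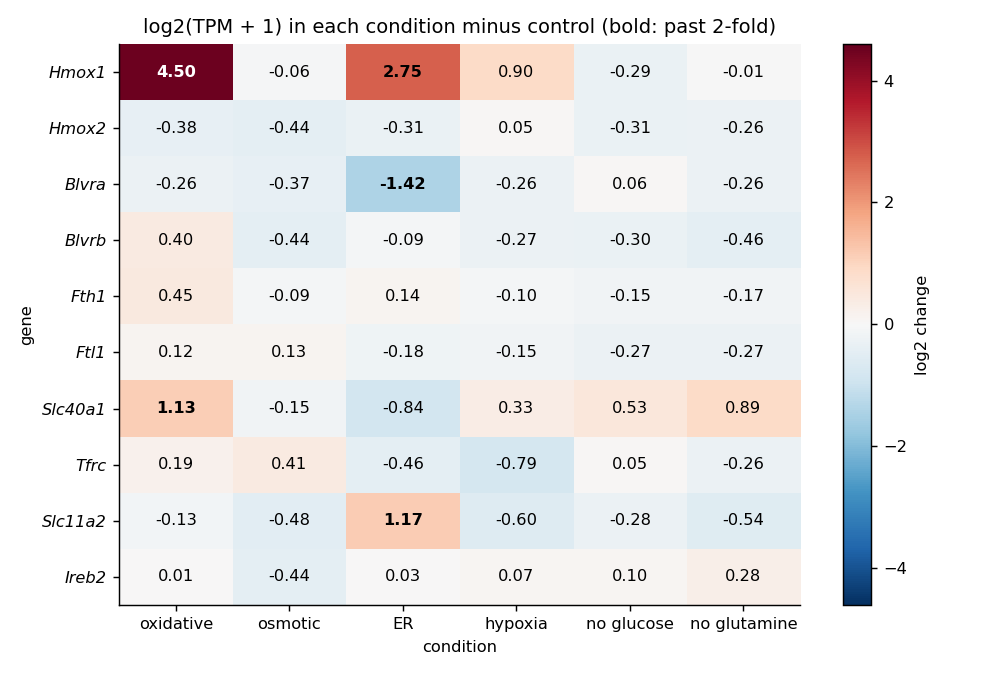
Log2 change against the control, on the log2(TPM + 1) scale, of the 10 genes (rows) in the 6 conditions (columns), with the value in each cell and values past 2-fold in bold. The 5 bold cells are Hmox1 at 4.50 and Slc40a1 at 1.13 in oxidative stress, and Hmox1 at 2.75, Slc11a2 at 1.17 and Blvra at -1.42 in ER stress.

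Read by condition, oxidative and ER stress were those with a gene past the threshold. In oxidative stress 2 of the 10 genes rose (Hmox1 and Slc40a1) and 0 fell, where 3.94% of kept genes rose and 4.85% fell. In ER stress 2 rose (Hmox1 and Slc11a2) and 1 fell (Blvra), where 8.60% of kept genes rose and 11.0% fell. Hmox1 was the gene that rose in both. In the remaining 4 conditions 0 of the 10 genes rose or fell, against 3.08% and 8.76% of kept genes in osmotic stress, 3.57% and 2.64% in hypoxia, 1.83% and 2.41% in glucose depletion, and 3.21% and 3.21% in glutamine depletion. The 10 genes are protein-coding, and among the 11300 protein-coding kept genes these shares were lower. There 1.79% rose and 3.46% fell in oxidative stress, and 7.10% and 9.80% in ER stress. In osmotic stress they were 1.41% and 7.35%, and in hypoxia 1.93% and 1.02%. In glucose depletion they were 0.442% and 0.602%, and in glutamine depletion 1.89% and 1.86%.

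The median log2 change of the 10 genes was 0.16 in oxidative stress, where that of the kept genes was -0.16. The medians were -0.26 and -0.12 in osmotic stress, -0.13 and 0.00 in ER stress, -0.13 and -0.05 in hypoxia, -0.21 and -0.02 in glucose depletion, and -0.26 and -0.09 in glutamine depletion. Oxidative stress was the condition in which most of the genes (7 of 10) lay above the control. Relative to the median of the kept genes in oxidative stress, the change of Hmox1 was 4.66 and that of Slc40a1 was 1.29. Subtracting that median moved the share of rises among all called genes in oxidative stress from 44.8% to 59.7% (508 rises and 626 falls became 613 and 413) and left the calls of the 10 genes as they were.

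**Figure D3:**
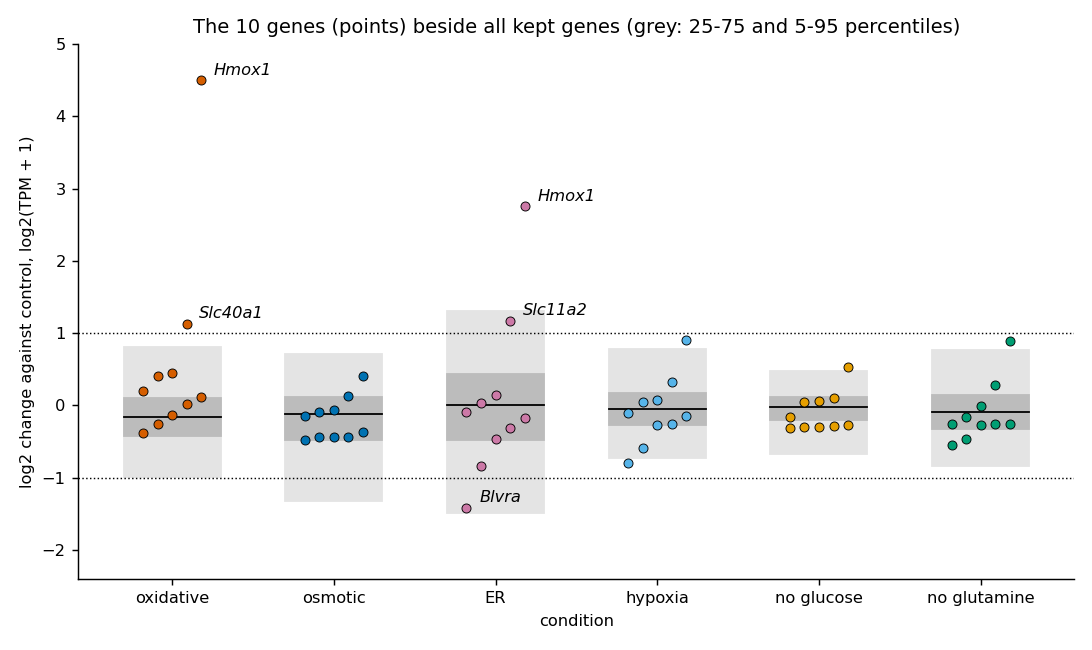
Log2 change against the control of the 10 genes (points, spread sideways for legibility) beside all 12909 kept genes, whose 5 to 95 and 25 to 75 percentile ranges are the light and dark grey boxes with the median as a line. Hmox1 lies far above the grey range in oxidative and ER stress, Slc11a2 and Blvra lie within the wide range of ER stress, and the dotted lines mark 2-fold. Slc40a1 lies above the light grey range in oxidative stress and in both nutrient depletions. In hypoxia Hmox1 lies above that range and Tfrc below it.

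In ER stress 7 of 7 fibroblast markers lay below the control, with a median log2 change of -0.86 and Col3a1 past the threshold at -2.07, while in the other conditions the median of these markers lay between -0.07 and 0.16. Epithelial markers summed to 11.6 TPM in ER stress against 5.90 TPM in the control, and most of both sums was Krt18 (5.56 TPM in the control, 10.6 TPM in ER stress). Krt8 went from 0.172 to 1.00 TPM, Cdh1 from 0.0934 to 0.0604 TPM and Epcam from 0.0753 to 0 TPM. The part of these shifts in the ER stress values of Hmox1, Slc11a2 and Blvra was not tested.

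Ratios within a library do not depend on its total, and they set the libraries apart in different ways.

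**Figure D4:**
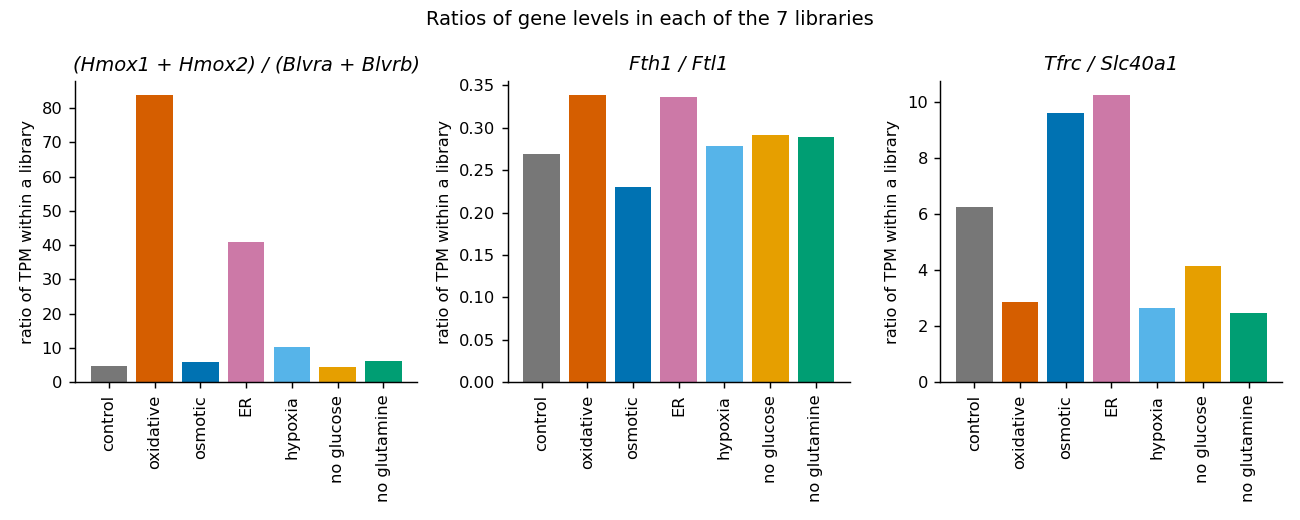
Ratio of TPM within each of the 7 libraries (bars from 0, 1 library each) for heme oxygenases over biliverdin reductases, Fth1 over Ftl1, and Tfrc over Slc40a1. The first is 83.7 in oxidative stress and 40.9 in ER stress against 4.86 in the control, the second is highest in these same 2 conditions, and the third is 10.2 in ER stress but 2.86 in oxidative stress. The divisor of the third, Slc40a1, was at 9.21 TPM or less in every library.

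The remaining genes of heme and iron metabolism were read from lists drawn up with earlier results of these data known. NRF2 targets other than the genes above came first, since Hmox1, the ferritin chains, Blvrb and Slc40a1 are known NRF2 targets too. Of 8 such genes, 6 rose in oxidative stress, where 3.94% of kept genes rose, with a median log2 change of 1.60 and the lowest at 0.16. Among them Srxn1 (sulfiredoxin) went from 54.0 to 291 TPM (log2 change 2.41), Osgin1 from 4.12 to 18.6 TPM (1.94) and Txnrd1 (thioredoxin reductase) from 205 to 634 TPM (1.63). In ER stress 2 of the 8 rose, against 8.60% of kept genes, with a median of 0.65 and the lowest at -0.44. The largest change there was that of the cystine transporter Slc7a11, from 2.60 to 18.5 TPM (2.44). In glutamine depletion 2 of the 8 rose (Txnrd1 at 1.19 and Srxn1 at 1.13, with a median of 0.13), against 3.21% of kept genes, and Hmox1 stood at -0.01. In the other 3 conditions 0 of the 8 passed the threshold, where between 1.83% and 3.57% of kept genes rose and between 2.41% and 8.76% fell.

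Heme synthesis showed its calls in ER stress. Of 11 genes kept, 2 rose there and 0 fell, where 8.60% of kept genes rose and 11.0% fell, and 0 passed the threshold in the other 5 conditions, whose shares are given above. Cpox, the coproporphyrinogen oxidase of the mitochondrion, went from 24.9 to 124 TPM (log2 change 2.27), and Slc25a38, a mitochondrial carrier of glycine for heme synthesis, from 18.9 to 40.6 TPM (1.07). In oxidative stress Cpox was at 12.4 TPM (-0.95), just short of the threshold for a fall. In ER stress other genes of the list lay below the control. Tmem14c, a porphyrin importer of mitochondria, stood at -0.92 and Fech, which puts iron into the ring, at -0.80. The median of the list in ER stress was 0.16. Heme transport and binding (7 genes) had 1 rise in ER stress, where 8.60% of kept genes rose, Flvcr1, a transporter known for heme export and choline import (log2 change 1.08 from 6.25 TPM), and 1 fall in glucose depletion, where 2.41% fell, Flvcr2 (3.13 to 0.649 TPM, -1.32). The largest change of Abcg2 was -0.57, in oxidative stress, and that of Slc46a1 was 0.53, in osmotic stress.

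Of 19 further genes of iron uptake, storage and transport, 14 were kept, and in ER stress 3 of these rose and 1 fell, where 8.60% of kept genes rose and 11.0% fell, with a median of 0.43. Steap1 and Steap3 went opposite ways. Steap1 went from 27.1 to 92.3 TPM (1.73), and Steap3, which reduces transferrin iron in the endosome, from 47.8 to 12.5 TPM (-1.85). The mitochondrial iron importer Slc25a28 went from 9.88 to 31.1 TPM (1.56), and the zinc and iron importer Slc39a14 from 45.8 to 92.6 TPM (1.00, at the threshold). In the other 5 conditions 0 of the 14 genes passed the threshold. Of kept genes, between 1.83% and 3.94% rose and between 2.41% and 8.76% fell in those conditions.

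Genes of iron and heme sensing (12 listed, 11 kept) had 1 rise in oxidative stress, 2 in osmotic stress and 1 in ER stress (3.94%, 3.08% and 8.60% of kept genes rose), all of small Maf proteins, the partners of NRF2 and BACH1 on DNA. Maff rose in oxidative stress (28.7 to 62.8 TPM, log2 change 1.10) and osmotic stress (61.1 TPM, 1.06), and Mafk in osmotic stress (22.1 to 46.7 TPM, 1.05) and ER stress (61.8 TPM, 1.44). Keap1, which marks NRF2 for breakdown, stood at -0.97 in oxidative stress, and Fbxl5, which marks iron-regulatory protein 2 for breakdown, at -0.95 in osmotic stress, both just short of the threshold. In iron-sulfur cluster assembly 1 of 11 genes passed it, near the 8.60% of kept genes that rose in ER stress, and this was Lyrm4 (9.04 to 19.6 TPM, 1.04). Fdxr (1.00) stood just below it in ER stress, and the largest change of Hscb was -0.76, in glutamine depletion.

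**Figure D5:**
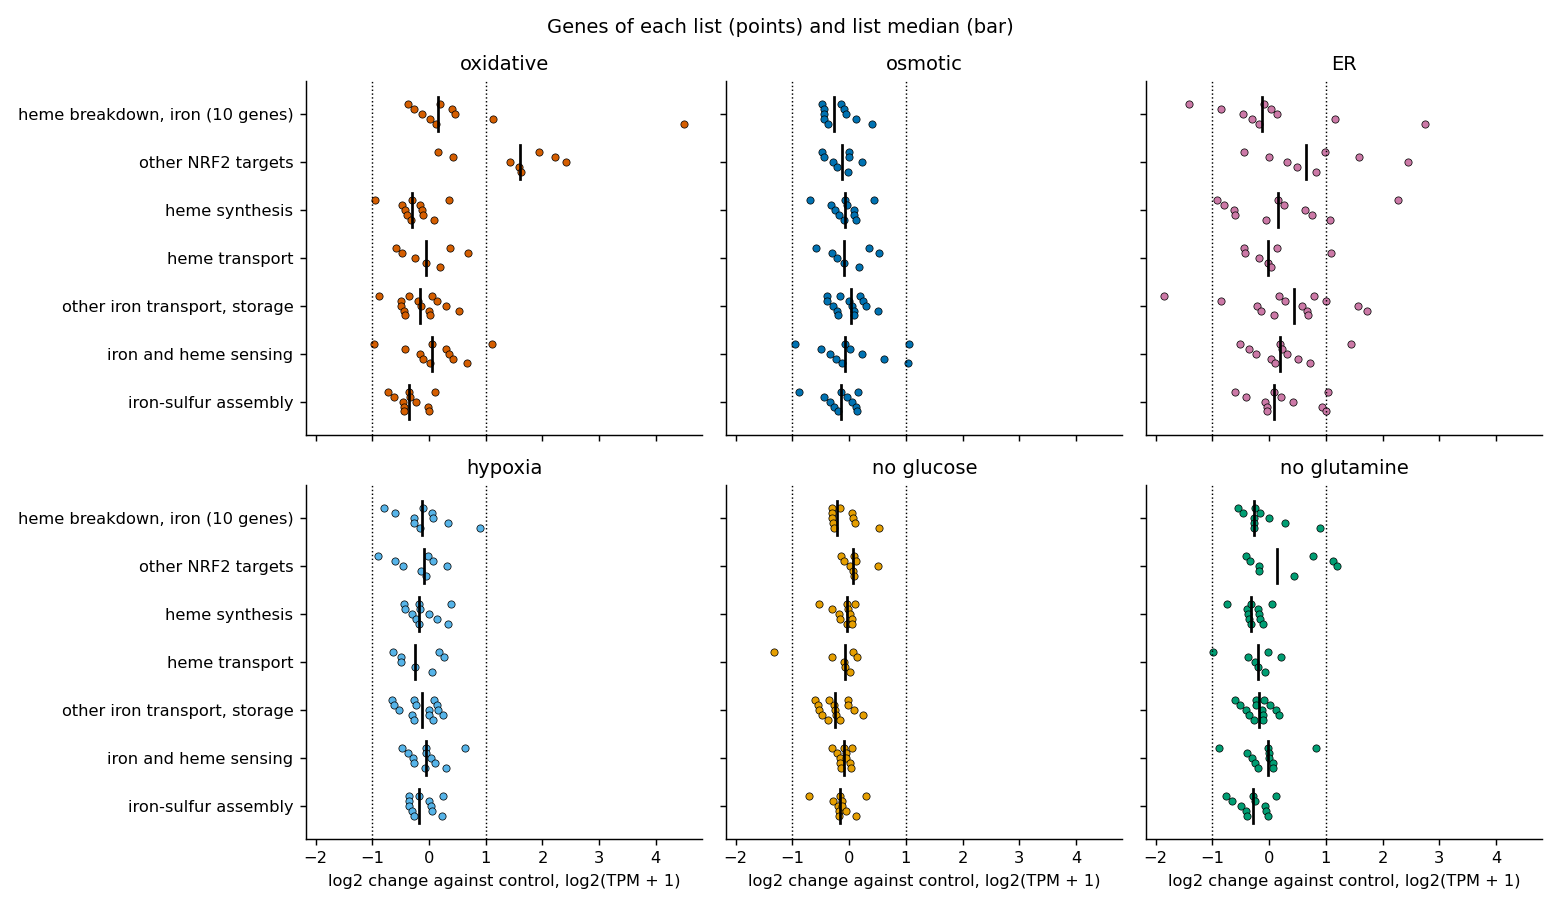
Log2 change against the control (horizontal axis) of each kept gene (points) in the 10 genes and in 6 further lists (rows), with 1 panel for each condition, the list median as a bar and 2-fold as dotted lines. The NRF2 targets lie to the right in oxidative stress with a median of 1.60, and in ER stress Cpox lies at 2.27 and Steap3 at -1.85.

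The 3 genes with the widest range over the 7 libraries were compared with all kept genes for likeness of pattern, by the root mean square difference of log2(TPM + 1) after each gene's own mean over the 7 libraries was taken off. For Slc11a2 the nearest were Slc25a33 (difference 0.12), Srprb (0.13) and Pecr (0.14), with log2 changes in ER stress of 1.53, 1.31 and 1.34. Slc25a33 is a carrier of pyrimidine nucleotides in mitochondria, Srprb a subunit of the signal recognition particle receptor and Pecr a peroxisomal reductase. For Slc40a1 the nearest were Nxph3 (0.19), Jun (0.20) and Myzap (0.20), of which Jun, a subunit of AP-1, went from 71.0 TPM in the control to 109 TPM in oxidative stress and 39.9 TPM in ER stress. For Hmox1 the nearest were Gm25996 (0.44), Gm38208 (0.48) and Mir1970 (0.60), microRNA genes and a pseudogene listed at 0 TPM in the control. They averaged 2 TPM or more only through oxidative and ER stress, the libraries where Hmox1 was highest. The filter itself thus favoured their likeness, and nothing about Hmox1 is drawn from it.

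Among protein-coding genes alone, a choice made after the values were seen, the nearest to Hmox1 were the metallothionein Mt2 (difference 0.93), the zinc finger gene Zfand2a (0.94) and Slc7a11 (0.97), with larger differences than those of Slc40a1 and Slc11a2 from their nearest genes. Mt2 was at 168 TPM in the control, 1333 in oxidative stress, 449 in ER stress and 659 in hypoxia, so its hypoxia value (log2 change 1.96) stood higher than that of Hmox1 (0.90).

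The promoter table of RefSeq (GRCm38.p6, 250 bases before to 50 bases after each gene start) held 12 promoters for 7 of the 10 genes, with Hmox1, Slc40a1 and Slc11a2 not matched. The letters GCTGAGTCA, a core shared by NRF2 and BACH1 sites, were in 0 of the 12 on either strand, and in 0.454% of all 32851 promoters. At so low a share 12 promoters would seldom hold a match, and sites further upstream were not searched. Nothing about NRF2 or BACH1 is drawn from this absence. The letters ACGTG, the core of hypoxia response elements, were in a promoter of Blvrb and in overlapping promoters of Tfrc, and in 19.6% of all promoters.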

How the data were processed

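MEFs of 7 conditions (1 library each) were sequenced by the study after poly(A) selection with a stranded kit. Per the study's methods, the authors quantified the reads with kallisto (version 0.43.1 in the submitters' processing notes) at default settings against GRCm38 cDNA of Ensembl release 90, and deposited the TPM per gene, as the sum of its transcripts. Reads shared by transcripts are split by kallisto's model, which bears on Ftl1 and Hmox2. Depth is unknown, so no counting interval is given.

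Conditions were taken from the labels. From the deposited TPM, log2(TPM + 1) minus the control was computed and counted past 2-fold over genes averaging 2 TPM or more (12909 of 49382). No test was possible. The text names the 10 genes, the up to 4 kept genes of each other list with the largest change, and the 3 genes nearest in pattern to each of the 10 with a log2 range of at least 1.5. Maff and Mafk are also named in osmotic stress, Srxn1 and Txnrd1 in glutamine depletion, because the counts there are small. Cpox is also named in oxidative stress, where it was just short of the threshold. A gene that this rule names is not reported here. The genes and lists were chosen with earlier results of these data known. Flvcr1 and Flvcr2 were found under older symbols.

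Copies were transcripts of other genes sharing at least 100 stretches of 31 bases with a gene, and at least 20% of their own. A copy that overlaps the gene on the genome, as Cdip1 does Hmox2, was not added to it. Positions and elements came from GENCODE M21, promoters from RefSeq. The planned motif search over a longer upstream stretch was not run. Scripts were tested on simulated data. The scripts ran in Python 3.11.15 with pandas 2.3.3, numpy 2.4.6 and, for the plots, matplotlib 3.10.9.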

Additional observations from a re-analysis of the deposited data

How the results depend on the processing

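The counts of the 10 genes past 2-fold were recomputed with other settings. In oxidative stress the count of 2 became 1 (Hmox1) with 5 TPM added before the logarithm and 1 at a threshold of 3-fold. In ER stress the count of 3 became 1 (Hmox1) at 3-fold, and 4 with 0.1 TPM added and at 1.5-fold, where Slc40a1 joined as lower. In hypoxia the count of 0 became 3 at 1.5-fold, with Hmox1 higher and Tfrc and Slc11a2 lower. In glutamine depletion the count of 0 became 1 (Slc40a1) with 0.1 TPM added and 1 at 1.5-fold. No share of all kept genes was computed at 1.5-fold, at 3-fold or with another added value, so these counts stand without one. Centring on the median of the kept genes, removing mitochondrially encoded genes and adding near-identical copies left the counts past 2-fold as they were. The copies added were those that do not overlap the gene, so Cdip1 was not added to Hmox2. The split of reads between Cdip1 and Hmox2 was therefore not checked. Of 300 recomputed log2 changes of single genes, 297 kept their side of the threshold, 2 passed it and 1 dropped under it, all 3 of Slc40a1 under another added value. The sign differed in 5 of the 300, none past 2-fold. On centring, Hmox1 became 0.06 in osmotic stress and 0.08 in glutamine depletion, Fth1 became 0.03 in osmotic stress and Slc11a2 became 0.02 in oxidative stress, and Hmox1 in glutamine depletion became 0.0096 without mitochondrially encoded genes. The share of all genes past 2-fold depended on the genes counted. In oxidative stress it was 3.88% of all genes and 5.25% of protein-coding kept genes. No replicate could be left out, and no paired analysis was possible because each condition has 1 library. The spread between cultures and the sequencing depth are unknown. Slc40a1 was under 10 TPM in every library.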
